A study of Mus musculus with 8 samples.

Results

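The Vmn1r genes, which encode the V1R vomeronasal receptors, were examined in differentiated brown adipocytes. The 231 members are the protein-coding genes of GRCm38 (mm10) on chr1 to chr19 whose symbol begins with Vmn1r, of 20665 protein-coding genes on these chromosomes. The rule uses the name and no measured value, but the family was picked with earlier results of these data known. A member was counted in a list when its gene body or the 10 kb on either side met a peak.

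V1R proteins are G-protein-coupled receptors of vomeronasal sensory neurons, where they detect pheromones and other chemical cues and signal through the G protein subunit Gnai2 and the cation channel Trpc2. Each neuron is known to express a single receptor gene, and the genes have an intronless coding sequence and lie in clusters that expanded by duplication in rodents. EBF2 belongs to the early B-cell factors, a family of transcription factors known from B-lineage cells and, independently, from olfactory neurons, and it is also a determinant of brown adipocyte fate. H3K27ac, acetylation of histone H3 at lysine 27, marks active promoters and enhancers.

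The cells were BAC, a brown preadipocyte line, immortalized with SV40 large T antigen, whose donors were newborn mice with both Cars2 alleles floxed (Cars2 flox/flox). A retrovirus carried either no insert (Vec, labelled wild type) or Cre recombinase (Cre, labelled Cars2 knockout), and both kinds of cell were differentiated with a cocktail of IBMX, indomethacin, dexamethasone, insulin and T3, followed by insulin and T3. Cars2 is a mitochondrial cysteinyl-tRNA synthetase that also makes persulfides. Cut & Tag, in which a transposase tethered to an antibody inserts adapters near the bound protein, was done on 50000 cells per sample with antibodies against EBF2 or H3K27ac, with 2 libraries for each antibody and each kind of cell, or 8 in all. Nothing in the labels says that the 2 libraries of a group came from separate cultures, so the spread between them may be technical. The peak names in the list of EBF2 Cre replicate 1 carry the name of a knockout mouse (Cars2AKO), and the labels were followed.

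The lists held 533 to 902 peaks, which on chr1 to chr19 covered 37.7 to 52.1 Mb. They carry no read counts, so the depth is unknown. EBF2 Vec replicate 2 had the fewest peaks and the least covered length. The targeted gene, Cars2, had no peak within 10 kb in any list, so the lists do not check the knockout. Of 12 brown adipocyte marker genes, among them Ucp1, Cidea and Pparg, 0 had a peak within 10 kb in any list. Of all protein-coding genes, 7.72% had one, so a count of 0 of 12 is near the share of all genes. Marker genes need not follow that share, and the lists do not check the labelled cell type. The paper reports EBF2 Cut & Tag binding at the Cars2 promoter and at Ucp1 in differentiated brown adipocytes. These lists held no peak within 10 kb of either gene, and the cause was not tested. Of 12 markers of vomeronasal sensory neurons, among them Omp and Trpc2, 0 had one either.

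Between 56 and 71 of the 231 Vmn1r genes had a peak in a given list. In the EBF2 lists these were 68 genes (29.4%) in Vec replicate 1, 56 (24.2%) in Vec replicate 2, 70 (30.3%) in Cre replicate 1 and 69 (29.9%) in Cre replicate 2. Of all protein-coding genes, 4.04%, 3.09%, 4.06% and 3.91% had a peak in these lists. In the H3K27ac lists, 71 Vmn1r genes (30.7%) had a peak in Vec replicate 1, 67 (29%) in Vec replicate 2, 68 (29.4%) in Cre replicate 1 and 66 (28.6%) in Cre replicate 2. The shares of all protein-coding genes were 5.79%, 4.53%, 4.77% and 6.2%. The share of Vmn1r genes was thus 4.61 to 7.85 times that of all genes, in each of the 8 lists, for a family picked with such results known. The neighbouring members share the same peaks, so these counts are not of independent sites.

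The other chemoreceptor families are described by counts alone. Of 123 Vmn2r genes, which encode the V2R receptors of the vomeronasal organ, 11 to 23 had a peak in a list (8.94 to 18.7%) and 9 had one in all 8 lists (7.32%). These shares were below those of Vmn1r genes and above those of all genes in each list. Of 1104 olfactory receptor (Olfr) genes, 2 to 6 had a peak in a list (0.181 to 0.543%), a share below that of all genes, and 0 had one in all 8. No peak lay within 10 kb of the 15 Taar, 7 Fpr, 35 Tas2r or 3 Tas1r genes. The same was true of 15 genes of vomeronasal signalling, among them Gnai2, Trpc2 and Plcb2.

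**Figure D1:**
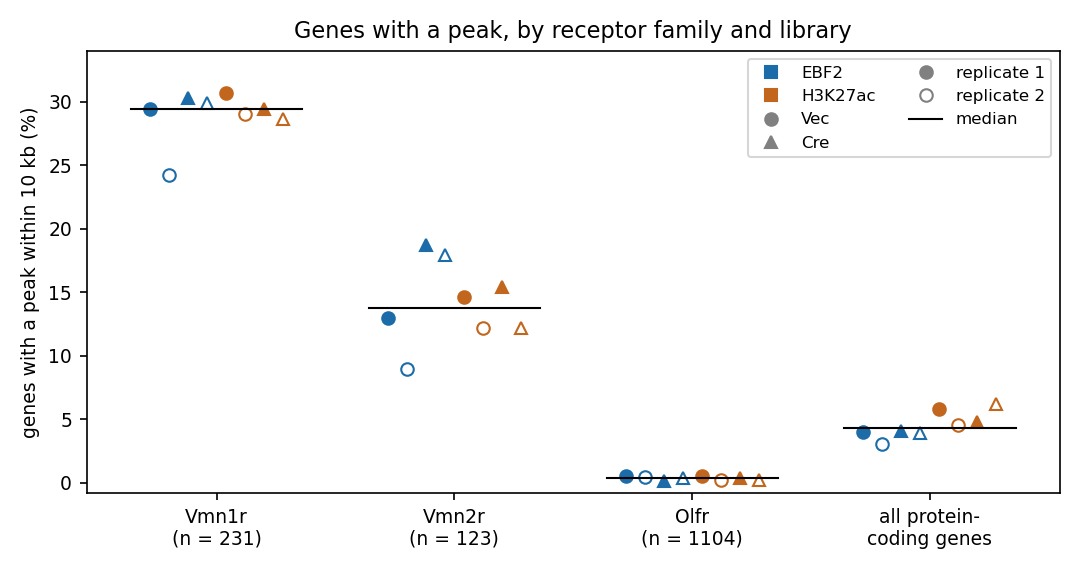
Percent of genes that met a peak (gene body and 10 kb on either side), by receptor family and for all protein-coding genes; each symbol is 1 library and the line is the median of the 8. The Vmn1r values lie between 24.2% and 30.7%, above the Vmn2r, Olfr and all-gene values of the same list in all 8 lists.

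The peaks at Vmn1r genes were shared by the libraries. Of the 231 members, 160 had no peak in any list and 56 had a peak in all 8, which left 15 in between. Among all protein-coding genes, 7.72% had a peak in at least 1 list and 2.87% had one in all 8. All 71 Vmn1r genes with a peak had it in lists of both antibodies. No member had a peak in exactly 1 list, and none had peaks in 3 or 4 lists of one antibody and 0 of the other. Of the 15 in between, 7 had peaks in every list but that of EBF2 Vec replicate 2 (Vmn1r94, Vmn1r95, Vmn1r241, Vmn1r242, Vmn1r160, Vmn1r258 and Vmn1r259), and all 15 lacked a peak in that list.

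The members with peaks lay almost wholly in a single cluster. Joined over gaps under 1 Mb, the Vmn1r genes form 14 clusters. The largest, on chr7 from Vmn1r91 to Vmn1r183 (chr7:20101158-24055691), holds 86 members, of which 69 had a peak. The chr13 cluster from Vmn1r188 to Vmn1r223 (chr13:22087878-23250323) holds 36 members, of which 2 had a peak. The other 12 clusters had none, among them the cluster of 28 members on chr6 (Vmn1r4 to Vmn1r31), that of 24 members on chr7 (Vmn1r66 to Vmn1r89) and that of 14 members on chr17 (Vmn1r224 to Vmn1r237). On chr7 as a whole, 57 of 126 members had no peak. The 160 members without a peak were a median of 388 kb from the nearest peak of any list (lowest 19.3, highest 8916 kb), and 5 of them were within 50 kb of a peak.

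The 56 members with peaks in all 8 lists form 1 unbroken run, from Vmn1r243 to Vmn1r159 (chr7:20333142-22843605, 2.51 Mb). No Vmn1r gene in this stretch lacked a peak. The 12 other protein-coding genes there are numbered gene models (Gm), and all 12 had peaks in all 8 lists too. Each of the 56 was covered by peaks over its whole length in all 8 lists. Vmn1r243, Vmn1r244, Vmn1r100, Vmn1r101, Vmn1r103, Vmn1r104, Vmn1r245, Vmn1r246, Vmn1r107 and Vmn1r111, which lead the run by position, are therefore tied with the rest of the run. Vmn1r genes are short, with a median length of 924 bp against 17491 bp for all protein-coding genes, and neighbours in the run were a median of 33.4 kb apart. A peak that covers many members is thus mostly sequence between genes.

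**Figure D2:**
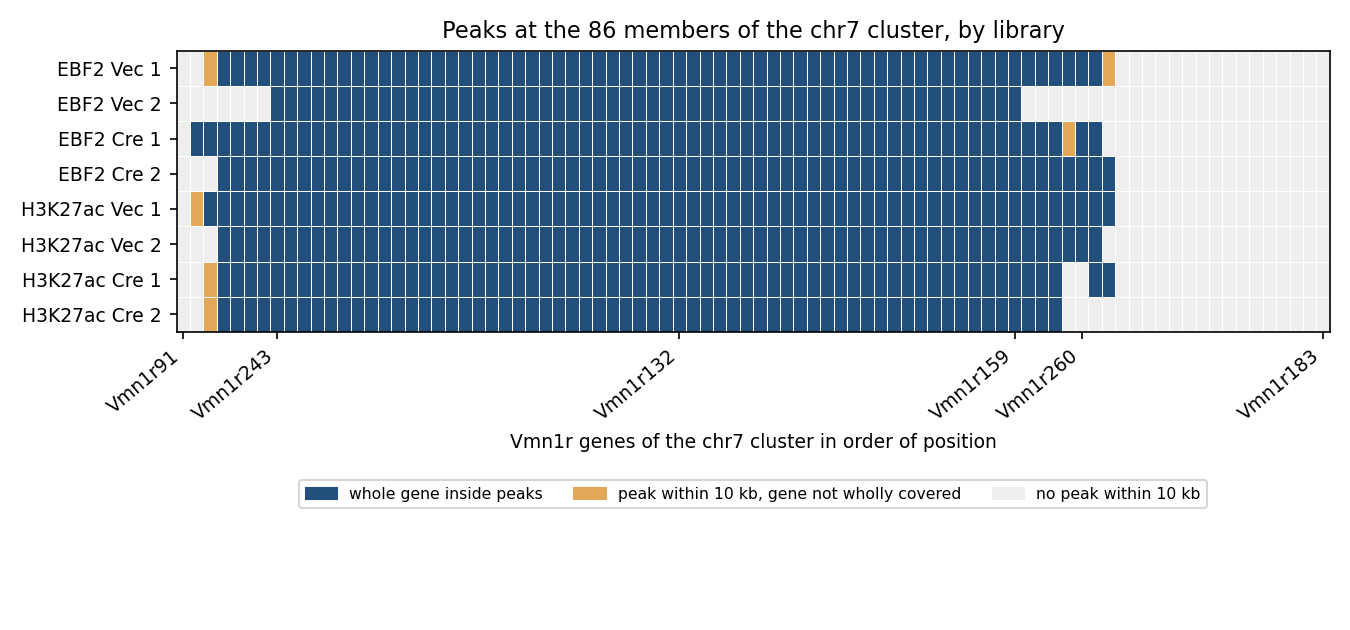
The 86 members of the chr7 cluster in order of position (columns) in the 8 libraries (rows), coloured by whether the whole gene lay inside peaks, a peak lay within 10 kb, or neither. The 56 members from Vmn1r243 to Vmn1r159 are wholly covered in each library, and the libraries differ at the members on either side.

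The run was covered by a single peak in each list. In EBF2 Vec replicate 1 this peak was 2.9 Mb wide and overlapped 63 members. In EBF2 Vec replicate 2 it was 2.58 Mb wide with 56 members, in EBF2 Cre replicate 1 2.91 Mb with 64, and in EBF2 Cre replicate 2 2.95 Mb with 65. The narrowest of the 4 EBF2 peaks was that of Vec replicate 2, and the other three were alike in width. In H3K27ac it was 3.15 Mb with 69 members in Vec replicate 1, 3.07 Mb with 66 in Vec replicate 2, 2.88 Mb with 63 in Cre replicate 1 and 2.89 Mb with 63 in Cre replicate 2. It was the widest or second-widest peak of chr1 to chr19 in every list, and it made up 5.8 to 6.86% of the length covered there.

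The height of this peak, as the authors' fold over background, was 36.3 and 19.3 in EBF2 Vec, 44.2 and 46.8 in EBF2 Cre, 10.1 and 9.67 in H3K27ac Vec and 7.94 and 8.99 in H3K27ac Cre (replicates 1 and 2). EBF2 folds are taken at the highest point of a peak and H3K27ac folds are means over the region, so the antibodies are not compared. The fold also depends on the background coverage, since the caller adds 1 to both terms. The background coverage recovered from the authors' folds and p-values was 7.38, 1.39, 8.26 and 8.76 in the EBF2 libraries in the same order. The value of 1.39 in Vec replicate 2 came from 31 peaks, of which 54.8% were within 5% of it. Relative to that background, with no 1 added, the coverage at the summit was 41.1, 32.4, 49.4 and 52.1 times. For EBF2, both Cre values were above both Vec values on either scale. For H3K27ac, both Cre folds were below both Vec folds. However, 2 against 2 libraries allow no exact permutation p below 0.333, and the lowest EBF2 value was in the library of lowest background. The summits lay at chr7:21621925, 21703603, 21617655 and 21672038, between Vmn1r132 and Vmn1r247, in the middle of the run.

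**Figure D3:**
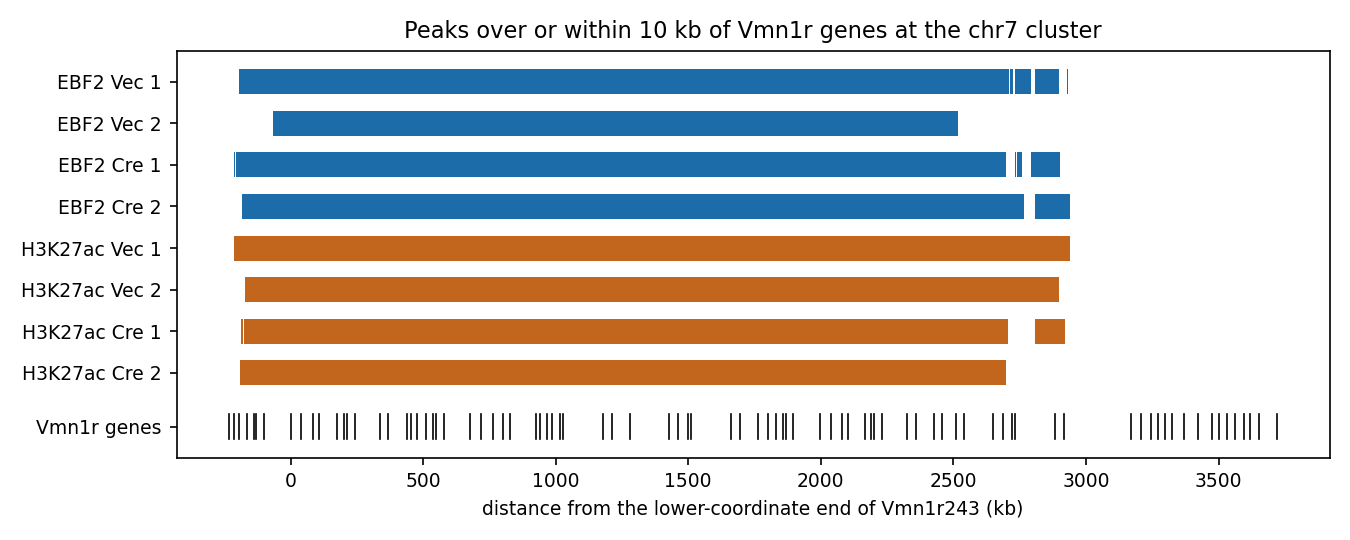
Extent of the peaks that lay over or within 10 kb of a Vmn1r gene at the chr7 cluster, in each library, as distance in kb from the lower-coordinate end of Vmn1r243; black ticks are the 86 members. The 8 main peaks start within 144 kb of each other, and the members without a peak lie outside, 1 on the left and 16 on the right.

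The libraries differed at the margins of the chr7 stretch. The main peaks began between chr7:20121867 and chr7:20265484, a spread of 144 kb, and ended between chr7:22848988 and chr7:23270994, a spread of 422 kb. Without EBF2 Vec replicate 2, the spreads were 38.8 and 239 kb. On the left, Vmn1r240 had a peak in EBF2 Cre replicate 1 and H3K27ac Vec replicate 1 only. Vmn1r93, the next member, had a peak in 5 lists, and it missed the 10 kb limit in EBF2 Cre replicate 2 at 10.9 kb. Vmn1r91, the first member of the cluster, was 19.3 kb from the leftmost peak. On the right, Vmn1r166 was the last member with a peak, in 4 lists, and the 16 members after it had none. Over all members, only 7 pairs of a member and a list had their nearest peak outside the gene but within 10 kb, at 0.502 to 5.53 kb, and the nearest beyond the limit were at 10.9 and 11.7 kb.

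Cre and Vec were compared to ask whether loss of Cars2 moved the peaks at Vmn1r genes. For EBF2, the share of members with a peak was 30.1 ± 0.306% (SD, n = 2) in Cre and 26.8 ± 3.67% (SD, n = 2) in Vec, a difference of 3.25 percentage points (exact permutation test, two-sided, p = 0.333). For H3K27ac it was 29 ± 0.612% in Cre and 29.9 ± 1.22% in Vec, a difference of -0.87 points (exact permutation p = 0.667). No comparison of 2 against 2 libraries can give a p below 0.333 in this test. Without EBF2 Vec replicate 2 the EBF2 difference was 0.65 points, and without Vec replicate 1 it was 5.84 points. Without H3K27ac Vec replicate 1 the H3K27ac difference was 0. The recovered background coverage of that library was 18.8, against 9.41 to 9.91 in the other H3K27ac libraries. These values are approximate, since the coverage came out whole within 0.05 for only 15.6 to 22.2% of the H3K27ac peaks used. The part of background in the difference was not tested.

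The share of Vmn1r gene bases covered by peaks gave the same order. For EBF2 it was 16.8% and 14.4% in Vec and 17.6% and 17.2% in Cre, means of 15.6 ± 1.72% and 17.4 ± 0.231% (SD, n = 2; exact permutation p = 0.333). Without EBF2 Vec replicate 2 the difference fell from 1.8 to 0.58 points. For H3K27ac it was 17.9% and 16.8% in Vec and 17.1% and 16.6% in Cre, means of 17.4 ± 0.769% and 16.8 ± 0.343% (exact permutation p = 0.667). The H3K27ac difference of -0.54 points changed to 0 without H3K27ac Vec replicate 1 and to -1.08 points without H3K27ac Vec replicate 2. Between the antibodies, the share of members with a peak was 28.5 ± 2.84% for EBF2 and 29.4 ± 0.935% for H3K27ac (SD, n = 4; exact permutation test, two-sided, p = 0.829), and the covered share was 16.5 ± 1.44% and 17.1 ± 0.577% (exact permutation p = 0.657). None of these differences passed the threshold of 0.05. Without EBF2 Vec replicate 2, the antibodies differed by 0.43 and 0.11 points in the opposite direction, with EBF2 higher.

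The length covered by peaks at the chr7 cluster was compared in the same way, a comparison chosen after its values were seen. For H3K27ac, peaks covered 3.15 and 3.07 Mb in Vec and 3.01 and 2.89 Mb in Cre. Both Cre values were below both Vec values, with means of 2.95 ± 0.0839 and 3.11 ± 0.0563 Mb (SD, n = 2; exact permutation p = 0.333, the smallest that 2 against 2 allows). For EBF2, peaks covered 3.08 and 2.59 Mb in Vec and 3.05 and 3.09 Mb in Cre, and the groups overlapped (exact permutation p = 0.667). Without EBF2 Vec replicate 2 the EBF2 difference changed from 0.24 to -0.01 Mb.

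Member by member, 4 genes differed between Cre and Vec in both replicates of an antibody. They form 2 pairs of neighbours and are not 4 independent sites. A single peak covered Vmn1r163 and Vmn1r260 in each H3K27ac Vec list, and a single peak covered Vmn1r207 and Vmn1r208 in EBF2 Cre replicate 1. Vmn1r163 and Vmn1r260, neighbours at the right margin of the chr7 stretch, had an H3K27ac peak in both Vec lists and in neither Cre list (0.866% of members against 0.165% of all genes). The nearest H3K27ac peak in Cre was 16.5 kb from Vmn1r163 and 27.5 kb from Vmn1r260 in replicate 1, and 22.8 and 33.8 kb from them in replicate 2. No member was in this class when peaks within 50 kb were counted. In EBF2 both genes had peaks in 3 of 4 lists. Vmn1r207 and Vmn1r208, on chr13, had an EBF2 peak in both Cre lists and in neither Vec list (0.866% of members against 0.0968% of all genes). This class held 1 member when only peaks in the gene itself were counted and 0 when only peaks of at least the median score were. No member was in the opposite classes, with EBF2 in both Vec lists alone (0.0484% of all genes) or H3K27ac in both Cre lists alone (0.106% of all genes). With a single Vec list, the counts depended on which list was used. Against EBF2 Vec replicate 1 alone, 2 members had an EBF2 peak in both Cre lists and not in Vec (0.116% of all genes), and against H3K27ac Vec replicate 1 alone, 0 members had an H3K27ac peak in this way (0.16% of all genes). Against EBF2 Vec replicate 2 alone, 12 members had an EBF2 peak in both Cre lists and not in Vec (5.19% of members against 0.731% of all genes). Against H3K27ac Vec replicate 2 alone, 2 members had an H3K27ac peak in both Cre lists and not in Vec (0.866% of members against 0.348% of all genes). Vmn1r genes had any EBF2 peak 7.29 to 7.85 times, and any H3K27ac peak 4.61 to 6.4 times, as often as all genes. The shares of these classes are over all genes, and shares among genes with a peak were not computed. A class share above that of all genes is therefore not read as a greater change. Neighbouring members in these classes also shared peaks.

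The EBF2 peaks on chr13 had folds in the middle of their lists. In EBF2 Cre replicate 1, 1 peak of 72.2 kb (chr13:22702215-22774380) covered both genes, with a fold of 2.48. In EBF2 Cre replicate 2, a peak of 11.8 kb lay near Vmn1r207 with a fold of 2.25 and a second of 11.2 kb lay at Vmn1r208 with a fold of 2.15. These folds ranked 196 of 423, 240 of 463 and 287 of 463 peaks of chr1 to chr19 in their lists. Their −log10 q-values were 3.29, 2.48 and 2.08, where the smallest were 1.6 in the list of Cre replicate 1 and 1.3 in that of replicate 2. The recovered background coverage of EBF2 Vec replicate 2 was 1.39, and its part in the lack of a peak there was not tested. H3K27ac peaks lay at Vmn1r208 in all 4 lists and at Vmn1r207 in all but Vec replicate 2. Their folds were 1.66 for both peaks of Vec replicate 1 (1.95 and 47.9 kb wide) and 1.96 for the peak of Vec replicate 2 (2.26 kb wide). In Cre they were 2.43 in replicate 1 (74.8 kb wide) and 2.15 in replicate 2 (58.5 kb wide). The Cre folds ranked 146 of 525 and 202 of 729 peaks in their lists, and the Vec folds 408 and 411 of 661 and 321 of 467. H3K27ac peaks at these genes were thus present in Vec, with lower folds than in both Cre lists, a difference that was not tested. These folds are means over regions of unlike width. The recovered background coverage was also higher in H3K27ac Vec replicate 1, at 18.8 against 9.41 to 9.91 in the other H3K27ac libraries.

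The regions upstream of the members are shown because most members with peaks had a close copy elsewhere in the family. No protein sequences were at hand, and so the promoter windows of RefSeq (GRCm38.p6; 250 bases before the annotated gene start and 50 after it) were compared, which were found for 206 of the 231 members and 54 of the 56 in the run. In 181 of the 206, the annotated start was the start codon, so most windows precede the coding sequence and need not hold the site where transcription begins. The sequences below are the 250 bases before the start, 5′ to 3′ on the strand of the gene, and capitals mark bases that differ from the other sequence of the pair or face a gap in it.

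Vmn1r243, the first member of the run (chr7:20334066-20334315, minus strand), and Vmn1r260, at the right margin (chr7:23067457-23067706, minus strand), lie 2733 kb apart and were 95.6% identical over these 250 bases, with 11 differences:
Vmn1r243: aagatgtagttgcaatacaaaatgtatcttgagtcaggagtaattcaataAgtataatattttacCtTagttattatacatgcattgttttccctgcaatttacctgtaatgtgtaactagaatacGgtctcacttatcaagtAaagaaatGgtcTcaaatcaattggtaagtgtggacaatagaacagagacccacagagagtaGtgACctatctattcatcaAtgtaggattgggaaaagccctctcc
Vmn1r260: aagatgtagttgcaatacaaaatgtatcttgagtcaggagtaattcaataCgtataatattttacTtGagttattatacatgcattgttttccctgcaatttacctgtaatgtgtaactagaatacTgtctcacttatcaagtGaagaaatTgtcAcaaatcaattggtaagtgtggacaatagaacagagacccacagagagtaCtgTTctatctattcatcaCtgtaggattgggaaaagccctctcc

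Vmn1r173 (chr7:23702092-23702341, plus strand) and Vmn1r174 (chr7:23753661-23753910, plus strand) are the most alike pair without a peak, identical windows aside. They lie in the same cluster, to the right of the stretch, and were 98.8% identical with 3 differences:
Vmn1r173: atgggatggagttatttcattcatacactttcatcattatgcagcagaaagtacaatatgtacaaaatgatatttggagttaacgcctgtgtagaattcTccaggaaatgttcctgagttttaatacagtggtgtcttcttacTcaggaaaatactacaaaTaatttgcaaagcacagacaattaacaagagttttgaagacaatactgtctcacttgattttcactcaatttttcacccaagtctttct
Vmn1r174: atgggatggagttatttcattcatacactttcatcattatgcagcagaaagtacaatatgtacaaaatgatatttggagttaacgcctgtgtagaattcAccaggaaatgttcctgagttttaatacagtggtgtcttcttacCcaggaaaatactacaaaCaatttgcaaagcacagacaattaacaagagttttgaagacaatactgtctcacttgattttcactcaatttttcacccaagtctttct

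Vmn1r207 (chr13:22726623-22726872, minus strand) and Vmn1r208 (chr13:22773326-22773575, minus strand), which had EBF2 peaks in the Cre lists alone, are neighbours and yet were 71.9% identical:
Vmn1r207: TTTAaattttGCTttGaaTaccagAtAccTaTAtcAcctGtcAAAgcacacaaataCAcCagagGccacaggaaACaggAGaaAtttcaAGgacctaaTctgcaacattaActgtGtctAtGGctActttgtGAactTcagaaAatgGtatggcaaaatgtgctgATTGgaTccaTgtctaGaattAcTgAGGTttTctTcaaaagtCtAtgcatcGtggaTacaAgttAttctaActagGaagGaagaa
Vmn1r208: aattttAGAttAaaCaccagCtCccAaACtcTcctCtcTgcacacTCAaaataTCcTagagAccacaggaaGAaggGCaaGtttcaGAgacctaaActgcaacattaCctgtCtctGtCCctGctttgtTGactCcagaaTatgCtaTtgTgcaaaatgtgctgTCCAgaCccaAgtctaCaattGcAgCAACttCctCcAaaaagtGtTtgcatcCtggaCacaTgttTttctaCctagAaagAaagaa

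The windows of members with peaks were nearly all copied elsewhere in the family. Among the 54 members of the run with a window, the identity of the 300 bases to the most similar other member had a median of 100%, and 41 had an identical window at another member. All but 1 were over 95% identical to another, the exception being Vmn1r148 at 66.6%. The run also held unlike windows, and its least similar pair, Vmn1r128 and Vmn1r148, was 48.6% identical. Among the 15 members with peaks in 1 to 7 lists, 11 had an identical window elsewhere and 13 were over 95%. The 137 members without a peak and with a window had a median of 75%, with 15 (10.9%) over 95%. Inside the chr7 cluster, the 16 members without a peak that had a window (all of them but Vmn1r178) had a median of 92.2%, and 7 of them were over 95%, so close copies also occurred where no peak was called.

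Grouped by over 95% identity, 81 members fell into 14 groups. The 5 largest, of 20, 14, 12, 10 and 7 members, all lay in the chr7 cluster, and Vmn1r91 was the only one of their members without a peak. The copies were mostly interleaved along the stretch. For a member of the run, the nearest of its most similar windows was a median of 756 kb away (lowest 12.5 kb), and it was that of a neighbouring member in 1 of 54 cases, Vmn1r125 with Vmn1r124. Vmn1r243 and Vmn1r119, for example, have the same window and lie 678 kb apart, and Vmn1r163 and Vmn1r135 have the same window and lie 1223 kb apart.

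In words of 36 bases, a median of 100% of the words in a run member's window also occurred in the window of another gene, against 0% for all members without a peak and 37.4% for those in the same chr7 cluster. A read that lies wholly inside such a word matches more than 1 window, while a longer read may match a single one. How reads with several matches were placed is not given in the sources used here, so the signal of single members in these groups is uncertain, and the part of shared sequence in the peaks was not tested. The stretch between the genes, which makes up most of the peak, was not analysed here.

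**Figure D4:**
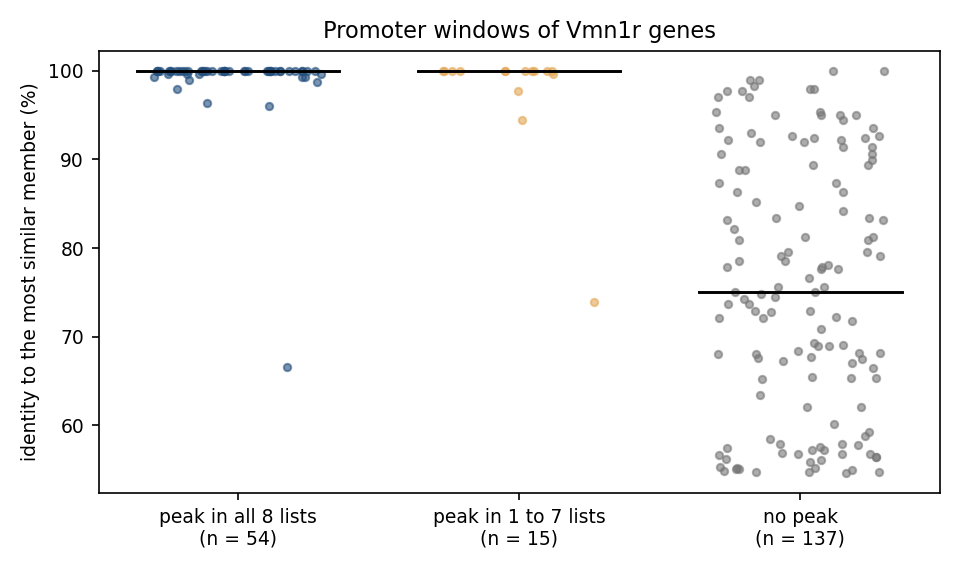
Identity of each Vmn1r promoter window (300 bases) to that of its most similar other member, in percent, for members with a peak in all 8 lists, in 1 to 7 lists and in none; points are members and lines are medians. Medians are 100%, 100% and 75%, and the members without a peak range from 54.6% to 100%.

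The windows were also searched for CCCNNGGG, a core of the sequence that EBF factors are known to bind, on both strands. It occurred in 0 of 54 windows of the run, 0 of 15 of the members with peaks in 1 to 7 lists and 1 of 137 of those without a peak, against 13.7% of all 32851 windows of this length. The GC content of the windows had a median of 36.3% in the run and 35.3% in members without a peak, against 52.7% in all windows. The letters searched are GC-rich, and the search covers only these windows.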

How the data were processed

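Cut & Tag libraries (4 for EBF2, 4 for H3K27ac; 2 Vec and 2 Cre each) were grouped by their labels. The submitters' processing notes name bcl2fastq 2.17, Trimmomatic 0.33, HISAT2 2.2.1, MACS2 2.2.7 and the build mm10; duplicate handling, multiply matching reads and control libraries are not given in the sources used here. The authors deposited 1 peak list per library, called on each library by itself, as narrow peaks for EBF2 and broad peaks for H3K27ac. The deposited score is 10 times the −log10 q-value, cut to an integer. The deposited fold is a ratio to the caller's background. The authors' caller also gave a −log10 p-value and a −log10 q-value. In the broad lists these are means over the region. The deposited summit distance was used for EBF2.

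Gene positions, symbols and promoter windows came from RefSeq GRCm38.p6, the assembly of mm10. From the lists were computed members with a peak (gene body and 10 kb on either side), member bases covered, clusters (gaps under 1 Mb) and distances. Background coverage was solved for part of the peaks in each list, 1 value per peak from its fold and p-value. The 10th percentile of these values was taken for the list. Of the peaks used, 54.8 to 87.1% in the EBF2 libraries and 43.2 to 69% in the H3K27ac libraries gave a value within 5% of it. The fold was taken as (coverage + 1) over (background + 1) and the p-value as a Poisson tail. The peaks used numbered 31 to 547 in the EBF2 libraries and 509 to 762 in the H3K27ac libraries. For EBF2 the coverage came out whole within 0.05 for 98.1 to 100% of the peaks used. For H3K27ac, whose values are means, it did so for 15.6 to 22.2% of them. An exact permutation test over libraries (two-sided, threshold 0.05) compared the groups. Promoter windows were aligned globally with Biopython 1.88. The software was matplotlib 3.10.9, scipy 1.17.1, pandas 2.3.3 and numpy 2.4.6 under Python 3.11.15, and the counting, coverage and permutation steps were tested on simulated data.

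Named members were the 10 most covered in all 8 lists (ties broken by summed peak length, then position), those present in both lists of one kind of cell and neither of the other, those with a peak of 10 kb or less, those in lists of 1 antibody alone or in exactly 1 list, and the ends of each run. Other members were named after their values were seen. Protein identity was planned but no protein table was used here, so promoter windows took its place. The members and lists were chosen with earlier results of these data known. Alternatives were a flank of 0 or 50 kb, peaks of at least the median score, peaks of 10 kb or less or over 10 kb, pseudogenes included, each library left out, and a replicate block.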

Additional observations from a re-analysis of the deposited data

Results flagged for a closer look

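EBF2 Vec replicate 2 stood apart from the other 3 EBF2 libraries in 2 Vmn1r measures. It had a peak at 24.2% of Vmn1r genes, and its gap to the nearest library was 0.857 of the range of the 4. Its peaks covered 2.59 Mb at the chr7 cluster, with a gap of 0.933 of the range. Both pass Dixon's 95% critical value for 4 values, which chance passes in about 1 in 20 groups, and 6 groups of values were examined. The same library had the fewest peaks and the lowest recovered background coverage, and the part of these in its low values was not tested.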

How the results depend on the processing

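Of 134 alternative values for 13 results, 80 were differences, of which 70 kept their direction, and 54 were counts, of which 45 were within 1.5 times the reported count (7 of these not equal to it). With peaks of 10 kb or less, the Cre minus Vec difference was 0 for EBF2 members with a peak and 0 for H3K27ac bases covered, EBF2 minus H3K27ac turned to 0.32 points (members) and 0.18 points (bases), and the members in all 8 lists, in both EBF2 Cre lists alone and in both H3K27ac Vec lists alone numbered 0, since the main chr7 peak and the EBF2 peaks of chr13, of 11.2 to 72.2 kb, are left out. Within 50 kb, the H3K27ac difference in members was 0 and the H3K27ac Vec-only members numbered 0. EBF2 Cre-only members numbered 1 in the gene itself, 0 at the median score or above, and 4 with pseudogenes (372 Vmn1r genes in all). The cause was not tested.

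Leaving out each library gave Cre minus Vec differences in members of 0.65 to 5.84 points for EBF2 and -1.73 to 0 for H3K27ac, and in bases of 0.58 to 3.01 and -1.08 to 0. EBF2 minus H3K27ac ranged from -1.59 to 0.43 points (members; exact permutation p 0.514 to 1) and -0.95 to 0.11 (bases; p 0.429 to 0.971), the positive values being without EBF2 Vec replicate 2. The chr7 length ranged from -0.01 to 0.49 Mb for EBF2 and -0.22 to -0.1 Mb for H3K27ac. EBF2 Cre-only members ranged from 2 to 12, H3K27ac Cre-only members from 0 to 2, and members in all lists from 56 to 63. Groups left with 1 library have no test.

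With a replicate block (same-numbered libraries paired, a pairing that rests on the number alone), differences were 3.25 and -0.87 points in members and 1.8 and -0.54 points in bases (EBF2, H3K27ac; exact sign-flip p = 0.5 each), -0.97 and -0.59 points between antibodies (p = 0.75 and 0.625), and 0.24 and -0.16 Mb at chr7 (p = 1 and 0.5). No p could fall below 0.5 with 2 pairs or 0.125 with 4 pairs, so the block could make no call. Depth is unknown and limits every absence of a peak.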
